A study of Mus musculus with 18 samples.

Results

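The genes described here are Afp, Gpc3, Tff3, Spink1 and Csn3, 5 of the 54838 genes in the deposited expression table, taken by symbol and followed through all 18 libraries. They were selected on their measured values, with earlier results of these data in view: each stood far apart between WT tumours and WT non-tumours or between GKO and WT tumours. In those comparisons their values are therefore given as a description, without a test. The study asked how loss of the miR-181ab1 cluster, the gene pair Mir181a-1 and Mir181b-1, bears on liver tumours induced by diethylnitrosamine (DEN), a carcinogen that hepatocytes activate. C57BL/6 mice were WT or GKO, the latter lacking the cluster in all tissues, and DEN was injected once at 25 mg/kg on postnatal day 12. Per the study's methods, the DEN model used male pups and WT controls were littermates that carried a flox allele or a Cre transgene alone. At 36 weeks of age, tumours and the tumour-free tissue of DEN-treated livers (non-tumours) were taken, with normal livers of untreated mice of the same age, at 3 libraries in each of the 6 groups. The labels did not say which tumour and which non-tumour came from 1 mouse, nor whether any tumours shared a mouse, so the p-values below measure only the spread between these libraries.

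Levels are in TPM, a unit that corrects for gene length and library size, and the reads behind them were recovered from the steps in the table. Each library held between 11921829 and 20745859 reads on genes. At this depth 1 read, as in WT non-tumour 3, was worth 0.0288 TPM in Csn3 and 0.283 TPM in Spink1. The deleted genes gave no check of the labels: Mir181a-1 and Mir181b-1 were listed at 0 in every library except GKO tumour 3, which had 1 read on Mir181a-1. Hepatocyte markers summed to between 195249 and 232302 TPM in the tumours, against 70281 to 101158 TPM in the other livers. Alb alone held 83554 to 139816 TPM of the tumour sums. In GKO tumours 5 of the 9 markers lay wholly above the non-tumours and 1, Serpina1c, wholly below. In WT tumours 3 of 9 lay wholly above and 0 wholly below. Of all genes, 25.7% lay wholly above in GKO tumours and 11% in WT tumours. WT tumours 1 and 2 were the closest pair of tumour libraries, with a Pearson r of 0.982 across genes, whereas the other 14 tumour pairs lay between 0.899 and 0.944. They were not identical and were kept as separate samples, and values with this pair averaged are given where they matter. WT non-tumour 2 stood apart from its group, with the surface protein gene Ly6d at 994 TPM, against 11.3 and 25.9 TPM in WT non-tumours 1 and 3 and 169 to 1629 TPM in WT tumours.

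Afp encodes alpha-fetoprotein, an albumin-like serum protein that the fetal liver secretes, that falls silent after birth and that returns in many hepatocellular carcinomas. Gpc3 encodes glypican-3, a heparan sulfate proteoglycan held on the cell surface by a lipid anchor, which is likewise made in the fetal liver and in hepatocellular carcinoma. Spink1 encodes a small secreted trypsin inhibitor best known from pancreatic acinar cells, and Tff3 a small trefoil peptide best known from the goblet cells of the gut. Csn3 encodes kappa-casein, a milk protein that keeps casein micelles in suspension.

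The seed of the deleted miRNAs is shown first, because it is what a direct target of the cluster would have to pair with. Both mature sequences come from RefSeq (GRCm38.p6, the same coordinates as mm10), at chr1:137966468-137966490 and chr1:137966650-137966673 on the plus strand, and the capitals mark the seed, bases 2 to 8.
mmu-miR-181a-5p: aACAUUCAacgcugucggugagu
mmu-miR-181b-5p: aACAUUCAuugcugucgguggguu
The seed is the same in both. Its reverse complement, TGAATGT, was not found in any annotated 3′ UTR of the 5 genes, the longest of which ran from 78 bases in Spink1 to 1001 bases in Csn3. Of all 21153 mouse genes with an annotated 3′ UTR, 18.5% held these 7 letters at least once. That no match was found says only that these letters are not in these windows.

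The upstream sequences of the oncofetal pair Afp and Gpc3 are shown because both genes were near silent in normal liver and high in tumours. These are the 250 bases before the RefSeq start of each gene in GRCm38.p6, at chr5:90490464-90490713 on the plus strand for Afp and at chrX:52613975-52614224 on the minus strand for Gpc3. Capitals mark a TATA box (TATAAA) or a GC box (GGGCGG), each searched on both strands, with no overlap between them.
Afp upstream: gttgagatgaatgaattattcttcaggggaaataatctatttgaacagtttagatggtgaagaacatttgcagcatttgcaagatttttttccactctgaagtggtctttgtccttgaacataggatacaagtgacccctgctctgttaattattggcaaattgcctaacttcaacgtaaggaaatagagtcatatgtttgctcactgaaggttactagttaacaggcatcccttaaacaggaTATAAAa
Gpc3 upstream: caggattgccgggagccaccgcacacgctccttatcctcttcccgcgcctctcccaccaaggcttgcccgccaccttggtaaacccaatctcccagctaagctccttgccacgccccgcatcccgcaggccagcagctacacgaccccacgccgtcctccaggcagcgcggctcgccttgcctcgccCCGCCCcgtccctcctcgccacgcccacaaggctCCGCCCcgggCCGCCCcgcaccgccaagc
The Afp window held 1 TATA box, 7 to 2 bases before the start. This RefSeq start lies upstream of the gene start in the annotation used for the gene's span. The Gpc3 window held no TATA box, but 3 GC boxes on the other strand. Its GC content was 71.6% with 25 CpGs, against 36.0% and 1 CpG in the Afp window. Across all 32851 RefSeq promoter windows of the same length, 12.4% held a TATA box and 32.7% a GC box. RefSeq windows matched these 2 of the 5 genes.

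The genes lie on 4 chromosomes of the mm10 mouse genome. Afp (ENSMUSG00000054932) spans chr5:90490737-90508907 on the plus strand and Csn3 (ENSMUSG00000001622) chr5:87925579-87932665, also on the plus strand. Tff3 (ENSMUSG00000024029) spans chr17:31125306-31129646 on the minus strand, Gpc3 (ENSMUSG00000055653) chrX:52272426-52613950 on the minus strand, and Spink1 (ENSMUSG00000024503) chr18:43728082-43737557 on the minus strand. All 5 are annotated as protein coding. For Spink1 the table's values imply an exonic length of 422 bases, against 729 in the annotation read here, and its TPM are on the shorter length. An antisense gene, Gm43449, overlaps Afp and reached 17.1 TPM in WT tumour 2, where Afp was at 3334 TPM. Whether the counting used strand was not given in the sources used here, so the reads of such a pair may not have been kept apart.

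Afp was high in tumours but varied widely among them. It stood at 2353, 3334 and 66.1 TPM in WT tumours 1, 2 and 3, and at 18.6, 55.6 and 13.0 TPM in GKO tumours 1, 2 and 3. In the 12 livers without tumour tissue it lay between 0.189 and 2.54 TPM. Thus every tumour was above every other liver, and every WT tumour was above every GKO tumour, although WT tumour 3 (66.1 TPM) was much nearer to GKO tumour 2 (55.6 TPM) than to the other WT tumours. Within the WT tumours the highest value was 50.4 times the lowest, and within the GKO tumours 4.27 times. In order of mean TPM the groups ran from WT tumours (1918) and GKO tumours (29.1) to non-tumours of WT (1.66) and of GKO mice (1.58), then WT normal (1.28) and GKO normal (0.962), and the last 4 overlapped each with the next.

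Gpc3 was high in 5 of the 6 tumours. It stood at 213, 277 and 108 TPM in WT tumours 1, 2 and 3, and at 2.49, 202 and 104 TPM in GKO tumours 1, 2 and 3. GKO tumour 1 was the exception: its 2.49 TPM, from 62 reads, lay just above the highest liver without tumour, GKO non-tumour 1 at 2.28 TPM. The WT and GKO tumours overlapped. Among livers without tumour, the means fell in the order GKO normal (1.50 TPM), GKO non-tumour (0.948), WT non-tumour (0.586) and WT normal (0.329), each group overlapping the next.

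Tff3 was the most abundant of these genes in all 6 tumours. It reached 8160, 7777 and 3096 TPM in WT tumours 1, 2 and 3, and 3994, 997 and 3276 TPM in GKO tumours 1, 2 and 3. Ranked by TPM among all 54838 genes, it was the 18th highest in WT tumours 1 and 2 and no lower than the 109th in any tumour. It also varied least among tumours, with a highest value 8.18 times the lowest. In livers without tumour it ranged from 2.97 TPM in WT normal 2 to 96.6 TPM in WT normal 3, and the 4 group means (9.85 to 38.8 TPM) followed no order beyond their spread.

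Spink1 was present in 5 of the 6 tumours. It stood at 148, 236 and 0.537 TPM in WT tumours 1, 2 and 3, and at 52.8, 59.7 and 333 TPM in GKO tumours 1, 2 and 3. The value of WT tumour 3 rested on 2 reads and lay within the range of WT non-tumours (0.283 to 0.865 TPM, 1 to 3 reads a library). In the other livers no library had more than 3 reads. Spink1 was the only one of these genes with a higher mean in GKO tumours (149 TPM) than in WT tumours (128 TPM), but the 2 groups overlapped, and their difference of 1.45 on the log2(TPM + 1) scale (SE 1.88) became −0.87 without WT tumour 3.

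Csn3 separated the tumours by genotype. It stood at 164, 134 and 92.3 TPM in WT tumours 1, 2 and 3, and at 0.0782, 2.89 and 0.0880 TPM in GKO tumours 1, 2 and 3, the latter from 3, 98 and 3 reads. The 3 WT tumours were close to each other, the highest being 1.78 times the lowest. In livers without tumour no library had more than 6 reads, so that GKO tumours 1 and 3 could not be told from them at this depth: 0.177 TPM in GKO normal 1 was above both. Over WT non-tumours, whose 3 libraries held 2, 2 and 1 reads, WT tumours held 2656 times as much Csn3 (95% counting interval, 1138 to 8181). Reads carry no molecular identifiers, so intervals of this kind cover counting error only.

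**Figure D1:**
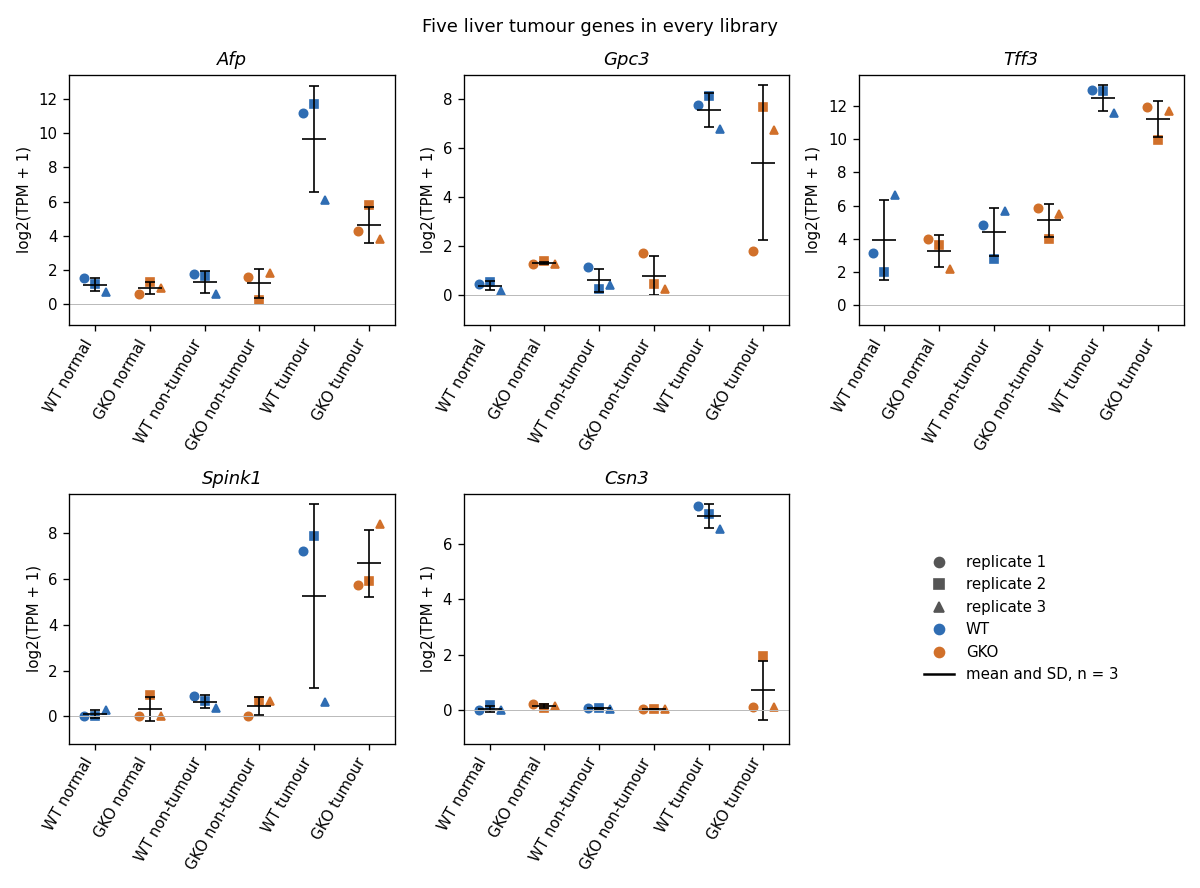
Level of each gene as log2(TPM + 1) (y axis) in the 6 groups (x axis), with 1 point for each library (circle, square and triangle for replicates 1, 2 and 3, blue for WT and orange for GKO) and the mean and SD of 3 libraries in black. The tumours lie above the other livers except WT tumour 3 for Spink1 and GKO tumours 1 and 3 for Csn3, and Gpc3 in GKO tumour 1 stays at 2.49 TPM.

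WT tumours 1 and 2 were high for all 5 genes, which together made up 1.10% and 1.18% of all TPM there. WT tumour 3 combined high Csn3, Gpc3 and Tff3 with an intermediate Afp of 66.1 TPM and almost no Spink1. GKO tumour 1 had Tff3 at 3994 TPM and Spink1 at 52.8 TPM but Gpc3 at 2.49 TPM, whereas GKO tumour 2 had the lowest Tff3 (997 TPM) and the highest Gpc3 (202 TPM) of its group. GKO tumour 3 had the highest Spink1 of all the tumours (333 TPM) together with the lowest Afp (13.0 TPM). Across the 6 tumours, Pearson's r of log2(TPM + 1) ran from −0.24 between Spink1 and Csn3 to 0.85 between Afp and Csn3, a description over 6 points that share 2 genotypes. By comparison Alb, the adult serum albumin gene, varied only 1.67-fold among the same tumours, from 83554 to 139816 TPM.

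**Figure D2:**
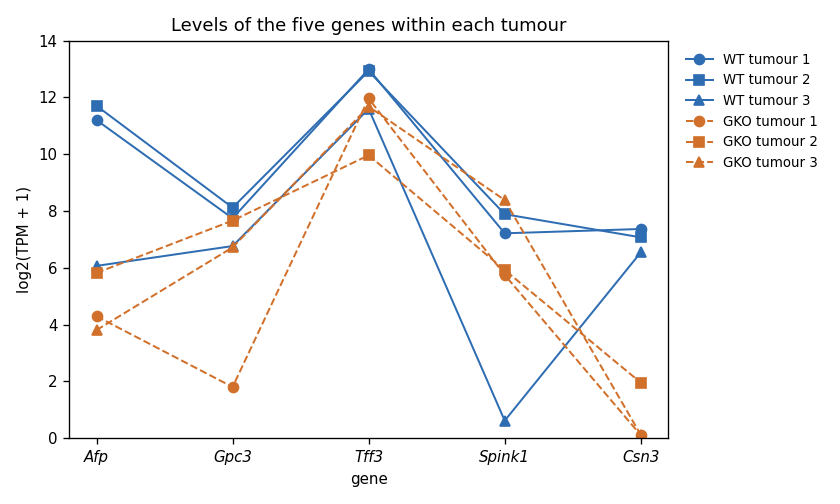
Level as log2(TPM + 1) (y axis) of the 5 genes (x axis) in each of the 6 tumours, WT in blue with solid lines and GKO in orange with dashed lines, where a line only joins the values of 1 tumour. The lines cross: WT tumour 3 drops at Spink1 (0.537 TPM), GKO tumour 1 at Gpc3 (2.49 TPM), and all 3 GKO tumours at Csn3 (at most 2.89 TPM).

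GKO tumours against GKO non-tumours is the tumour comparison that was not used to choose these genes, although its tumour libraries also entered the comparison of GKO with WT tumours, which was. Afp and Tff3 rose in GKO tumours. Afp, Gpc3 and Tff3 were higher in every GKO tumour than in every GKO non-tumour, as were 25.7% of all 14092 genes tested. Spink1 and Csn3 also did not overlap, but both entered the comparison only through the tumours. For Csn3 the gap came down to 3 reads against 1 in GKO tumours 1 and 3. Afp went from 2.01, 0.189 and 2.54 TPM in GKO non-tumours to the 13.0 to 55.6 TPM given above, 18.4-fold by mean TPM, and Tff3 from 57.8, 14.8 and 43.8 TPM to 997 to 3994 TPM, 71.1-fold. Spink1 had 0, 2 and 2 reads in GKO non-tumours and 206, 206 and 1155 reads in GKO tumours, 363-fold per depth (95% counting interval, 141 to 1333). On the log2(TPM + 1) scale, which understates the change of genes that start near 0, Afp rose by 3.42 (SE 0.60) and Tff3 by 6.09 (SE 0.66), with limma adjusted p-values of 0.0165 and 0.00506 (n = 3 against 3). Spink1 differed by 6.24 (SE 0.67, limma adjusted p = 0.00506), but it entered the test only through the tumours.

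Spink1 and Csn3 reached the mean of 0.5 TPM needed for the test only through the tumours, since their means in GKO non-tumours were 0.398 and 0.0305 TPM, so the p of Spink1 is not read as support and no count over the 5 is drawn from this test. Of all 14092 genes tested, 11.7% passed, 7.75% in the higher direction. Of all genes tested, 38.3% had groups that did not overlap, 25.7% with the tumours higher. The call of Afp was lost without GKO non-tumour 3 (limma adjusted p = 0.0513) and with no filter on low genes (0.0554). Gpc3 differed by 4.59 (SE 1.38) and did not pass (limma adjusted p = 0.0719), with an interval from 1.36 to 7.81. Without GKO tumour 1, where Gpc3 was nearly absent, the difference was 6.38 and passed (0.00470), and it also passed when the 18 libraries were fitted together (0.00618). Csn3 differed by 0.69 (SE 0.48, limma adjusted p = 0.352), on 104 reads in the GKO tumours, 98 of them in GKO tumour 2, against 3 reads in the GKO non-tumours. In such bulk libraries, more cells that express a gene and more RNA per cell cannot be told apart.

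In WT tumours against WT non-tumours, which chose the genes, the differences on the log2(TPM + 1) scale were 8.33 for Afp (SE 1.41), 8.09 for Tff3 (SE 0.76), 6.93 for Gpc3 (SE 0.41) and 4.60 for Spink1 (SE 1.78). For Csn3 the value of 6.93 (SE 0.25) depended on the pseudocount of 1, since it was 9.74 with 0.1. WT non-tumours 1, 2 and 3 had Afp at 2.38, 2.11 and 0.497 TPM, Gpc3 at 1.22, 0.182 and 0.355 TPM, and Tff3 at 26.9, 5.96 and 49.2 TPM. The groups did not overlap for any of these genes except Spink1. Of all 14003 genes tested, 4.23% passed and 11% were higher in every WT tumour, but nothing is read from these shares because the comparison selected the genes. Averaging WT tumours 1 and 2 as 1 sample left the Spink1 difference at 3.47, and it was 6.91 without WT tumour 3.

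In GKO against WT tumours, which also chose the genes, the differences were −5.02 for Afp (SE 1.45), −6.27 for Csn3 (SE 0.53), −2.15 for Gpc3 (SE 1.42) and −1.30 for Tff3 (SE 0.62). The groups did not overlap for Afp and Csn3, as was true in the lower direction of 4.78% of 13964 genes. The Gpc3 difference was −0.35 without GKO tumour 1, so that 1 library carried most of it, and that of Tff3 was −0.68 without GKO tumour 2. Only 3 genes of 13964 passed in this comparison (0.0215%), and none did with the replicate number as a block, with WT tumours 1 and 2 averaged, or without WT tumour 1, WT tumour 2 or GKO tumour 3, whereas 147 passed without WT tumour 3.

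Away from tumours, no difference in these genes passed the test. In GKO against WT non-tumours, Afp, Gpc3 and Tff3 reached the mean of 0.5 TPM over the compared libraries that a gene needed to be tested, and differed by −0.10 (interval, −1.27 to 1.06), 0.20 (−0.84 to 1.23) and 0.70 (−1.19 to 2.58) on the log2(TPM + 1) scale. None of the 3 passed, as was true of all 13768 genes tested (0%), of which 799 had an unadjusted p under 0.05 in limma (5.8%). Spink1 and Csn3 were too low to be tested.

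In GKO against WT normal livers, Gpc3 was at 1.46, 1.61 and 1.44 TPM in GKO mice and at 0.383, 0.460 and 0.142 TPM in WT mice. The GKO livers were thus all above the WT livers, from 32 to 35 reads against 4 to 11 a library. The difference was 0.92 (SE 0.20, interval 0.45 to 1.39), and the unadjusted p of 0.00212 became 0.854 after limma's adjustment over 13099 genes. The difference stayed between 0.82 and 0.99 as each library was left out. Gpc3 reached the mean of 0.5 TPM needed for this test only through the GKO livers, since its mean in WT normal livers was 0.329 TPM. Its p and interval here are therefore not read as support. Groups that do not overlap were seen in 7.95% of genes in this comparison, 6.23% with GKO higher, and 0% of genes passed after adjustment, with 519 at an unadjusted limma p under 0.05 (3.96%). Afp differed by −0.21 (interval, −0.87 to 0.45) and Tff3 by −0.65 (−3.20 to 1.90), the latter turning to 0.70 without WT normal 3, the library with 96.6 TPM.

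In non-tumour against normal livers over both genotypes (6 against 6 libraries), the change that came with DEN treatment was 0.22 for Afp (interval, −0.41 to 0.86), −0.15 for Gpc3 (−0.72 to 0.41) and 1.18 for Tff3 (−0.45 to 2.81, limma adjusted p = 0.355). None passed, while 0.4% of 13488 genes did. The change with DEN was also compared between the genotypes, GKO minus WT, and came to 0.10 for Afp (SE 0.61), −0.72 for Gpc3 (SE 0.50) and 1.35 for Tff3 (SE 1.52). No gene of 13488 passed that limma test, although 830 had an unadjusted p under 0.05.

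**Figure D3:**
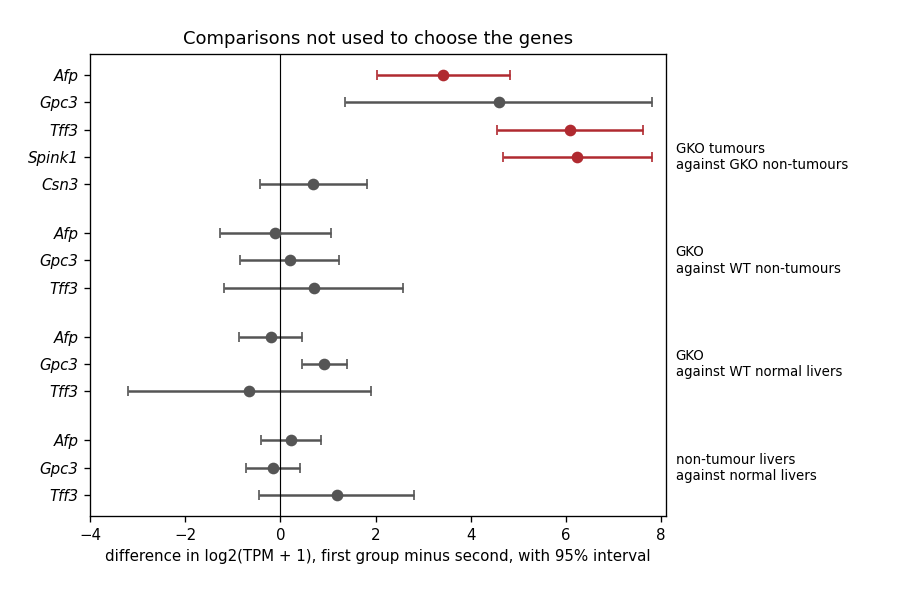
Difference in log2(TPM + 1) with its 95% interval (x axis) for each gene (y axis) that passed the filter in the 4 comparisons not used to choose the genes, in red where limma's adjusted p was under 0.05. Afp, Tff3 and Spink1 in GKO tumours (3.42, 6.09 and 6.24) are the red points, of which Spink1 entered the test only through the tumours. Gpc3 in GKO against WT normal livers (0.92) entered its test only through the GKO livers. Its interval is clear of 0, but it does not pass after adjustment.

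Among the known regulators of Afp, the postnatal repressor Zbtb20 had its lowest values in the tumours. Zbtb20 encodes a zinc finger protein that silences Afp after birth. It stood at 5.41, 4.73 and 4.01 TPM in WT tumours 1, 2 and 3 and at 3.68, 4.89 and 3.69 TPM in GKO tumours 1, 2 and 3, below all 12 other livers (7.66 to 30.2 TPM). It fell by 1.76 on the log2(TPM + 1) scale in GKO tumours (SE 0.24, limma adjusted p = 0.00887, 0.0501 without GKO non-tumour 3). In WT tumours the difference was −1.01 and did not pass (limma adjusted p = 0.0769). Afp ranged from 13.0 to 3334 TPM across these 6 tumours, and a link between the levels of Zbtb20 and Afp was not tested.

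Zhx2, the other classical postnatal repressor of Afp in mice, was at 3.49 to 5.77 TPM in WT tumours and 4.47 to 8.68 TPM in GKO tumours, and passed in neither WT nor GKO tumours (limma adjusted p = 0.774 and 0.129). Of the 16 regulators tested, Foxa3, Gata6 and Trp53 rose in GKO tumours (by 1.52, 0.93 and 0.80) and Zbtb20 fell, 25% against 11.7% of all genes (7.75% higher, 3.97% lower). Each of the 3 rises lost its call under median centring, which shifted the median of all genes in this comparison by −0.24. None of the 16 passed in WT tumours, where 4.23% of all genes did, nor between GKO and WT tumours, where only 0.0215% did.

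Beyond these 5, 26 other oncofetal and liver tumour genes were followed. In GKO tumours 5 of the 19 tested rose and 1 fell, against 7.75% and 3.97% of all genes. H19, an imprinted fetal non-coding RNA, rose by 8.60 (limma adjusted p = 0.00417), from at most 1.14 TPM in GKO non-tumours to 1005, 145 and 1680 TPM in GKO tumours 1, 2 and 3. Bex1 rose by 4.46 (0.00329) and Golm1, a Golgi membrane protein gene, by 2.36 (0.00506), and both kept their call as each library was left out. In GKO non-tumours Bex1 was at 0.418 to 0.538 TPM and Golm1 at 0 to 0.289 TPM, so the tumours carried them past the 0.5 TPM filter. Their p-values, and the count of 5 that includes them, are therefore not read as support. Akr1c18, a steroid reductase gene, rose by 5.09 (0.0366) and Sox4, a transcription factor gene of progenitor cells, by 2.43 (0.0252), while the glutathione transferase gene Gstp1 fell by 2.05 (0.0305). These last 3 calls were lost without GKO non-tumour 3 (limma adjusted p = 0.131, 0.101 and 0.117).

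In WT tumours 6 of 18 rose and 1 fell, against 2.16% and 2.07% of all genes. Bex1 (by 6.04, limma adjusted p = 9.76e-05) and Akr1c18 (by 7.41, 0.000864) rose as in GKO tumours, and both held without any 1 library. Golm1, Tspan8, Akr1b8 and Gstp2 also rose, and Glul, the glutamine synthetase gene of pericentral hepatocytes, fell by 3.44 (0.0320), but these 5 calls were each lost without at least 1 library. H19 stood at 455 and 538 TPM in WT tumours 1 and 2 and at 5.43 TPM in WT tumour 3, so that its difference of 5.64 did not pass (0.124). The fetal genes Igf2, Dlk1, Lin28b and Sall4 did not exceed 0.344 TPM in any library. Between GKO and WT tumours no gene of this list passed, but only 3 of all 13964 genes did (0.0215%), so nothing is read from that.

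**Figure D4:**
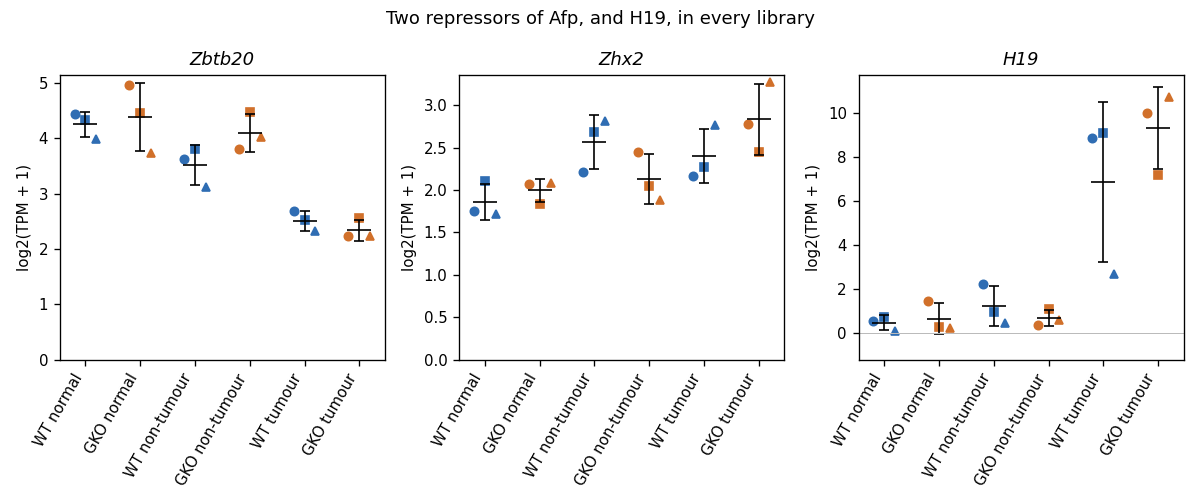
Level as log2(TPM + 1) (y axis) of the Afp repressors Zbtb20 and Zhx2 and of the fetal RNA H19 in the 6 groups (x axis), with 1 point for each library (blue for WT, orange for GKO) and the mean and SD of 3 libraries in black. Zbtb20 is lower in all 6 tumours (3.68 to 5.41 TPM) than in the other 12 livers, Zhx2 is not, and H19 is high in every tumour but WT tumour 3 (5.43 TPM).

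The relatives of each gene were then taken, to see whether a family or a cell type moved as a whole. Of the 3 other albumin family genes tested, Alb rose by 1.40 in WT tumours (limma adjusted p = 0.0358, 0.153 without WT tumour 2) and by 2.00 in GKO tumours (0.00861). Afm rose by 1.22 in GKO tumours (0.0279, 0.117 without GKO non-tumour 3), and the vitamin D-binding protein gene Gc passed in neither. The WT comparison chose Afp, so the larger difference of Afp there was built in and is not read against this family. Of the other glypicans and syndecans, none of 6 tested passed in WT tumours, where 4.23% of all genes did. In GKO tumours 1 of 7 passed, 14.3% against 11.7% of all genes. This was Gpc1, which rose by 2.76 in GKO tumours (0.00551). Gpc1 stood at 10.6, 13.9 and 25.7 TPM there and at 0.750, 1.75 and 11.0 TPM in WT tumours, including 10.6 TPM in GKO tumour 1, where Gpc3 was nearly absent.

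Few transcripts of the cell types best known for Tff3, Spink1 and Csn3 were found. Genes of goblet cells and the other trefoil peptides summed to between 1.33 and 4.58 TPM in the tumours, where Tff3 alone reached at least 997 TPM, and the mucin gene Muc2 did not exceed 0.0941 TPM in any library. The other Spink genes summed to at most 1.29 TPM. In the acinar list Cpa1, Cpb1, Pnlip, Cel and Try4 were at 0 in all 18 libraries, and nearly all of its 23.2 to 94.0 TPM in tumours was Cela1, an elastase gene that rose by 2.12 in WT tumours (limma adjusted p = 0.0181, 0.0771 without WT non-tumour 1). The other casein and milk genes summed to at most 0.325 TPM in any library, so that Csn3 in WT tumours, at 92.3 TPM or more, was not accompanied by Csn2 or the alpha-caseins.

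Markers of other liver cells moved with the tumours as well. Fibroblast markers summed to between 98.2 and 188 TPM in GKO tumours and between 47.9 and 72.3 TPM in GKO non-tumours, and 5 of the 8 rose and 1 (Dcn) fell there. In WT tumours the sum was 52.6 to 96.7 TPM against 42.6 to 63.3 TPM in WT non-tumours, with none of 8 called. Cholangiocyte markers reached 971 TPM in GKO tumour 2, of which 934 TPM was Spp1, and none of 6 was called in GKO tumours. In these comparisons 11.7% of all genes passed in GKO tumours and 4.23% in WT tumours. Of the hepatocyte markers, 4 of 9 rose in GKO tumours (Alb, Ahsg, Apoa1 and Fgb) and 2 of 9 in WT tumours (Alb and Ahsg). Of the endothelial markers, 2 of 8 rose in GKO tumours (Cdh5 and Pecam1), with sums of 84.8 to 135 TPM against 99.9 to 115 TPM in GKO non-tumours, and none of 7 passed in WT tumours. Macrophage markers summed to 92.7 to 240.4 TPM in GKO tumours against 177 to 701 TPM in GKO non-tumours, and lymphocyte markers to 5.41 to 10.3 TPM against 11.9 to 21.0 TPM. Marco and Cd79b fell among them in GKO tumours, and no macrophage or lymphocyte marker passed in WT tumours. Among these marker calls in GKO tumours, those of Acta2, Col1a1, Col1a2, Col3a1 and Alb held as each library was left out, and each of the others was lost without at least 1 library, GKO non-tumour 3 for most of them. The part of these cells in the levels of the 5 genes was not tested.

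Csn3 and Afp lie 2.558 Mb apart on chromosome 5, and the genes between them were read to see whether the interval moved together. Of the 46 annotated genes between them, the 5 highest by mean TPM were Alb, Gc, Utp3, Grsf1 and Slc4a4. In WT tumours 14 could be tested, with differences from −1.53 to 1.40. Alb rose and Rufy3 fell (by 1.05, limma adjusted p = 0.0314), 14.3% against 4.23% of all genes. In GKO tumours 15 could be tested, with differences from −0.83 to 2.00, and Alb rose, 6.67% against 11.7% of all genes. Alb ends 14.1 kb before Afp starts. Csn3 and Afp, at the ends, differed in WT tumours by 6.93 and 8.33, more than any gene tested between them. Because this comparison chose both genes, that gap was built in by the choice and is not read as a result. In GKO tumours Afp differed by 3.42 and Csn3 by 0.69, the latter less than Alb.

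**Figure D5:**
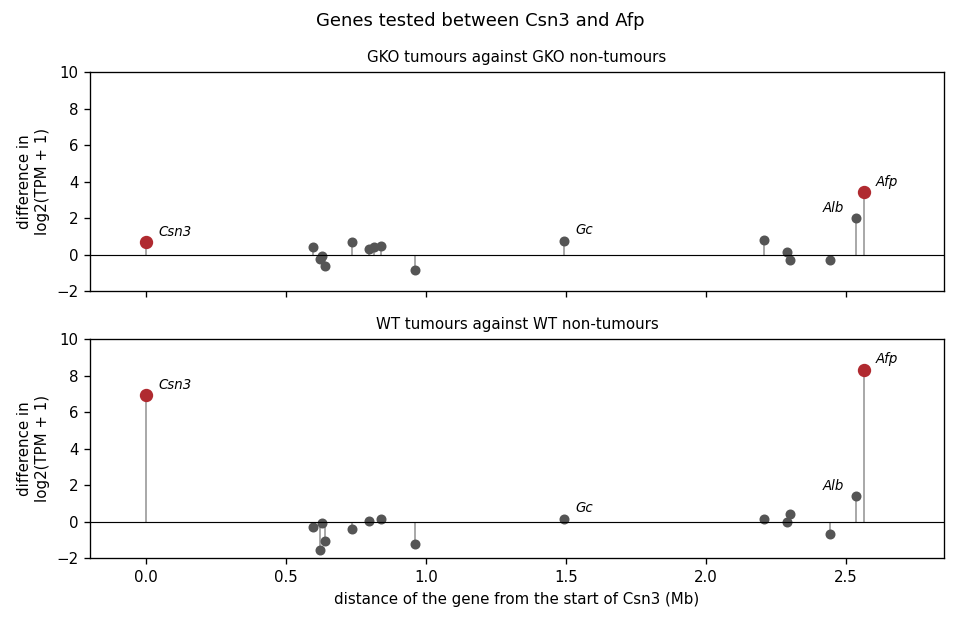
Difference in log2(TPM + 1) between tumours and non-tumours (y axis) of each gene tested from Csn3 to Afp, by its distance from the start of Csn3 in Mb (x axis), for GKO (top) and WT (bottom), with Csn3 and Afp in red and the genes between them in grey. In WT, the comparison that chose both end genes, they lie at 6.93 and 8.33, and the highest gene between them is Alb (1.40). In GKO Csn3 is at 0.69.

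The genes whose pattern was most like each of the 5 were taken as the 5 with the highest Pearson r of log2(TPM + 1) over the 18 libraries, leaving out genes whose mean was under 1 TPM. For the most part these coefficients follow the step from the other livers to the tumours, or for Csn3 the step from all other libraries to the WT tumours. They are a description. For Afp they were Sema4b (0.967), Scn8a, Ccne1, Krt5 and Cdhr2 (0.953). For Gpc3 they were Itih5 (0.972), Phgdh, 5330417C22Rik, Erich4 and Klrb1b (0.961), and for Tff3 they were Cyp4f16 (0.959), Naip2, Rab3d, Slc41a3 and Grk3 (0.948). For Spink1 they were H19 (0.972), Kdelr3, Arhgef25, Src and Itga6 (0.935), and for Csn3 they were Gm36325 (0.981), Dnaic1, Cdhr2, Tox2 and Myo7b (0.952). H19 and Spink1 shared the low value of WT tumour 3, and their r over the 6 tumours alone was 0.923. Ccne1, the cyclin E1 gene, had an r of 0.973 with Afp over the 6 tumours. Cdhr2, a protocadherin gene of epithelial brush borders, was the only gene on 2 of these lists, those of Afp and Csn3.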

How the data were processed

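RNA-seq was read in 18 mouse liver libraries, sequenced on an Illumina HiSeq by a service company. Per the study's methods and the processing notes, the authors aligned reads with STAR 2.7.3a to mm10, counted them per gene with featureCounts 2.0.0 and deposited TPM values, the unit used here; the annotation, strand setting and TPM formula were not given in the sources used here. Whole reads were recovered from the steps of the values (98.0% to 98.7% of values up to 30 reads came out whole, within 0.02 reads). Each library was placed in its group by its label.

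Differences were tested on log2(TPM + 1) with limma 3.58.1 (R 4.3.3; moderated statistics with a mean trend, Benjamini-Hochberg adjustment over all genes tested, two-sided, threshold 0.05), using only the groups compared and genes with an average of 0.5 TPM or more over them; non-tumour against normal livers had a genotype term. With 3 libraries against 3, an exact permutation test of a single gene cannot give a p below 0.1, so none was used. Ratios of reads carry exact 95% conditional binomial intervals, and a floor of 3 reads was kept in view for genes near 0. The steps were checked on simulated data.

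The 5 genes and all gene lists (other oncofetal genes, regulators of Afp, families, and markers of liver, goblet, acinar and milk-producing cells) were chosen with earlier results of these data known. The genes named are the 5, the listed genes that passed or had the highest level of their list, the genes between Csn3 and Afp that passed together with the 5 highest there, and the 5 most alike by Pearson r. Other listed genes, such as Ly6d, Zhx2, Igf2, Dlk1, Lin28b, Sall4 and those at 0, were named after their values were seen. A result for 1 listed gene is not reported here. Sequences come from RefSeq tables (GRCm38.p6) and gene models from GENCODE.

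Each result was recomputed with 0.1 as pseudocount, without the filter, with median centring, quantile normalization, all 18 libraries in 1 fit, no trend, the replicate number as a block, each library left out, and WT tumours 1 and 2 averaged. Replicate numbers were checked for pairing: the deviations of GKO and WT tumours with the same number correlated with r between 0.115 and 0.216, although these were different mice, and in no other pair of groups compared did all 3 pass 0.1. Between GKO tumours and GKO non-tumours all 3 correlated best with their own number (r between 0.0389 and 0.138). Between WT tumours and WT non-tumours only replicate 3 did, with r = 0.264. Shared mice are thus not excluded in either genotype. The main fit did not pair tumours with non-tumours.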

Additional observations from a re-analysis of the deposited data

How the results depend on the processing

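The number of genes passing moved with the processing in most comparisons. For GKO tumours against GKO non-tumours 1652 genes passed, 589 with no filter, 2722 with all 18 libraries in 1 fit, 1436 with the replicate number as a block, and 229 to 1567 as each library was left out (229 without GKO non-tumour 3); the share that was higher went from 66.1% to 44.0% under median centring and 52.0% under quantile normalization. For WT tumours against WT non-tumours 592 passed, 297 with no filter, 1649 in the fit of 18, 361 with the block, 185 with WT tumours 1 and 2 averaged, and 163 (without WT tumour 2) to 1363 (without WT tumour 3). For GKO against WT tumours 3 passed, 0 with a pseudocount of 0.1, with no filter, under median centring, with the block or with that average, 107 in the fit of 18, and 0 to 147 as libraries were left out. For non-tumour against normal livers 54 passed, 8 with no filter, 2 under median centring, 3 under quantile normalization, 14 with the block, and 1 (without WT normal 1) to 738 (without GKO non-tumour 2); 96.3% were higher, but 0% under median centring and 33.3% under quantile normalization. Between the genotypes 0 passed in non-tumours, 1 in the fit of 18, and 0 in normal livers under every alternative run. The cause of these shifts was not tested.

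Of 198 tested values of the 5 genes under alternatives, 186 kept their direction and side of the threshold, and of 140 values without a test 139 kept their direction. The 198 include Spink1 and Csn3 in GKO tumours against GKO non-tumours, which entered that test only through the tumours. They also include differences that did not pass in the main fit and stayed so. These counts are therefore a description and are not read as support. In GKO against WT non-tumours the Afp difference turned to 0.061 under median centring and ran from −0.48 to 0.38 as each library was left out, and that of Tff3 from −0.11 to 1.31. In normal livers that of Tff3 ran from −1.61 to 0.70. In non-tumour against normal livers Afp turned to −0.020 under median centring and Gpc3 ran from −0.31 to 0.012. In GKO against WT tumours Spink1 ran from −0.87 to 2.77. A pseudocount of 0.1 moved Csn3 to 9.74 and Gpc3 to 8.39 in WT tumours, and Csn3 to −8.09 between the genotypes. The block changed no call of the 5 genes. With the other ways of measuring likeness (Spearman, or the 6 tumours alone) at most 1 of the 5 most alike genes remained.

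Depth limits Csn3 and Spink1 outside the tumours, where no library had more than 6 reads of either.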

Other observations

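Bex1, Akr1c18 and Ly6d were picked from the other oncofetal and liver tumour genes after their values were seen, because their levels differed among the same tumours in their own ways. Bex1, a small adaptor protein gene best known from neurons, stood at 84.7, 113 and 100.4 TPM in WT tumours 1, 2 and 3 and at 31.3, 50.6 and 20.2 TPM in GKO tumours 1, 2 and 3, so that all WT tumours lay above all GKO tumours. The same held for 3 of the 19 genes of its list that were tested and for 4.78% of all 13964 genes. The difference of Bex1 between the genotypes, −1.60 on the log2(TPM + 1) scale (SE 0.34), did not pass (limma adjusted p = 0.345). Akr1c18 was at 488, 552 and 244 TPM in WT tumours and at 74.3, 551 and 14.1 TPM in GKO tumours, and the groups overlapped. Ly6d was at 1477, 1629 and 169 TPM in WT tumours and at 10.04, 433 and 305 TPM in GKO tumours, where GKO tumour 1, the library with almost no Gpc3, was near the 6.00 to 9.96 TPM of GKO non-tumours.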
